A study of Mus musculus with 40 samples.

Results

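The hypoxia and glycolysis genes are 38 mouse genes, chosen by name, that carry glucose into the cell, break it down to lactate, sense oxygen or belong to the classic targets of the hypoxia-inducible factors. All 38 were found among the 39012 gene identifiers of the count and TPM tables, and all 38 passed the filter on low counts in every comparison. They were followed in bulk RNA of EMT-6 tumors, a mouse mammary carcinoma line grown in the mammary pad of Balb/C females aged 8 to 12 weeks. Treatment began 20 days after inoculation, at a mean tumor volume near 400 mm3, with intravenous doses on days 0, 1 and 2, and tumors were collected on day 6.

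There were 4 groups of 10 mice, with 1 library per mouse. The bifunctional group received 492 µg of a fusion protein that joins an antibody against PD-L1 to a trap for TGF-β (M7824). The trap control group received 492 µg of the same design with a mutated antibody part, which leaves the TGF-β trap. The anti-PD-L1 group received 400 µg of the antibody alone, and the isotype control group 400 µg of an inactive isotype of it. All tumors shared the cell line, host and schedule. Libraries C0449 to C0464 (set 1) held the 10 isotype control and 6 trap control tumors. Libraries C0465 to C0488 (set 2) held the other 4 trap control tumors, 10 anti-PD-L1 tumors and 10 bifunctional tumors. The labels do not say what the numbering stands for. The 2 sets were kept apart, since the bifunctional and isotype groups shared no set, so that for them treatment and set cannot be told apart.

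When oxygen is low, the hydroxylases that mark HIF-1α for destruction slow down, and the stabilised factor pairs with ARNT and binds short DNA motifs near its targets. Those targets raise glucose uptake and glycolysis, export lactate and acid, call in vessels and trim mitochondria. Solid tumors often hold poorly perfused zones where this programme is on, and many tumor cells run glycolysis even with oxygen present. HIF-1α itself is controlled mostly at the protein level, so the level of Hif1a mRNA is not a readout of its activity.

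The core motif of a hypoxia response element reads ACGTG or GCGTG. It was searched on both strands (CACGT and CACGC on the other) in the 250 bases upstream of each RefSeq transcription start in GRCm38.p6, with overlapping matches merged. Of the 35 members with such a window, 31 (88.6%) held the motif, against 6681 of 11311 tested genes with a window (59.1%). Over single windows, 38 of 50 member windows (76%) held it, against 53.3% of the windows of tested genes and 38.6% of all 32851 windows. Both the member windows and those of tested genes held a median of 14 CpG dinucleotides. A match is a description of these letters and not a bound site, and Ndrg1, Slc2a3 and Bnip3l had no window. The windows below belong to the 3 genes whose levels differed between treatments within a set (Slc16a3, Bnip3 and Hif1a) and to 3 classic targets shown beside them (Car9, Ldha and Ankrd37). They are printed 5′ to 3′ on the gene's strand with the motif in capitals. They lie at chr11:120948817-120949066 (+) for Slc16a3, chr7:138909507-138909756 (-) for Bnip3, chr12:73907617-73907866 (+) for Hif1a, chr4:43506776-43507025 (+) for Car9, chr7:46845554-46845803 (+) for Ldha and chr8:45999851-46000100 (-) for Ankrd37.
Slc16a3: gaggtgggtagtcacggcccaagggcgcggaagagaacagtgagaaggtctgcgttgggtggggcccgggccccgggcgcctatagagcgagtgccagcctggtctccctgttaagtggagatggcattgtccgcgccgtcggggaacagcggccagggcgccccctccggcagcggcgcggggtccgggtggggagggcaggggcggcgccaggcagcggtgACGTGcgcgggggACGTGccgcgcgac
Bnip3: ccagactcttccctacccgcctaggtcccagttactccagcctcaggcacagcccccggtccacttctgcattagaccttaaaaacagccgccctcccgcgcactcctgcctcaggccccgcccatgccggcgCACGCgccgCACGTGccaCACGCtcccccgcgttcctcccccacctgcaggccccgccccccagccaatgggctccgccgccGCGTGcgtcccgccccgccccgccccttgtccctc
Hif1a: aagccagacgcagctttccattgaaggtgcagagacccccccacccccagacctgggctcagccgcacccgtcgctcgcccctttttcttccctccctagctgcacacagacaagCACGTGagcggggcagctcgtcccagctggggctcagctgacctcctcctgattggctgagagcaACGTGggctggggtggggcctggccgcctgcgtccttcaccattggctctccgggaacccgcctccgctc
Car9: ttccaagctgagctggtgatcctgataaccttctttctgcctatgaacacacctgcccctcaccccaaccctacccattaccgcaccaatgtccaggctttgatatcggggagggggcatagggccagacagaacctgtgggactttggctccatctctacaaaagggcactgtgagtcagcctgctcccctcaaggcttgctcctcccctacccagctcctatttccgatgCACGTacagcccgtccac
Ldha: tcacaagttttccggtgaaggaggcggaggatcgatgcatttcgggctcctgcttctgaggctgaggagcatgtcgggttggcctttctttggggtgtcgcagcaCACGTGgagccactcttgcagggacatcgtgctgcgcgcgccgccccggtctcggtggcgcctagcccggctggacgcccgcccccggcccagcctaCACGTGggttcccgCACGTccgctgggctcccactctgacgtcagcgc
Ankrd37: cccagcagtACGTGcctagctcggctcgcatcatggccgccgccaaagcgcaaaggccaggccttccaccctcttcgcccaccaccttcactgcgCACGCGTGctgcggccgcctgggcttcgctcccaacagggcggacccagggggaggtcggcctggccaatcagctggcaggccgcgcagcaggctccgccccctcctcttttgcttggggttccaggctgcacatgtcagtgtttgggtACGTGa
Bnip3 held 4 separate matches, Ldha and Ankrd37 held 3 each, Slc16a3 and Hif1a held 2 each, and Car9 held 1, which begins 18 bases upstream of the start. Of the member windows 14% held 3 or more matches, against 8.02% of the windows of tested genes.

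Libraries held 13495835 to 25108601 expected counts in set 1 and 21987948 to 27658263 in set 2. The sets differed in the share taken by 4 structural RNAs (Rn7s1, Rn7s2, mt-Rnr1 and mt-Rnr2), which was 29.66 to 62.32% in set 1 and 11.73 to 18% in set 2. The members held 0.325 to 0.926% of the counts of a library in set 1 and 0.815 to 1.63% in set 2. Summed markers of skeletal muscle stood far above the rest in 3 libraries, at 3874 CPM in C0484 and 2014 CPM in C0479 (both bifunctional) and 5779 CPM in C0463 (trap control). C0479 also held 3840 CPM of keratinocyte markers, and C0484 held 1404 CPM of adipocyte markers. The 6 epithelial tumor markers were detected in every group, with sums of 329 to 558 CPM in bifunctional tumors and 439.8 to 1015 CPM in anti-PD-L1 tumors. In such bulk RNA, fewer cells of a type and less RNA per cell cannot be told apart.

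By TPM, which divides by transcript length and so allows genes to be compared, several genes of lower glycolysis and Ldha stood highest. Eno2 and Aldoc, also of lower glycolysis, had medians of only 8.015 and 7.525 TPM in bifunctional tumors. In bifunctional tumors the median level was 383 TPM for Pkm, the pyruvate kinase gene, then 308.5 TPM for Aldoa (aldolase), 271 TPM for Pgk1 (phosphoglycerate kinase) and 216 TPM for Ldha (lactate dehydrogenase). In anti-PD-L1 tumors the same 4 genes led, at 396 TPM for Pkm, 281 TPM for Pgk1, 255 TPM for Aldoa and 218 TPM for Ldha. The ranges of these neighbours overlapped. Among the lowest members in bifunctional tumors were those with medians of 6.63 TPM for Car9, 5.74 TPM for Egln3, 4.4 TPM for Pfkfb3, 1.93 TPM for Pfkfb4 and 1.48 TPM for Slc2a3. The same genes had medians of 4.88 TPM for Car9, 4.51 TPM for Egln3, 2.82 TPM for Pfkfb3, 1.33 TPM for Pfkfb4 and 1.32 TPM for Slc2a3 in anti-PD-L1 tumors.

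The level listed for Gapdh was no measure of that gene. Across the 40 libraries, 70403 expected counts were assigned to Gapdh and 1940750 (96.5%) to 143 genes with near-identical sequence, most of them to the pseudogene Gm13394, which is 99.9% identical. The share left to Gapdh itself ranged between 1.81 and 5.13% of the sum. Eno1, the enolase gene, shared its counts with Gm4735 and Eno1b, which took 58.8% of the sum, and Pgam1 (phosphoglycerate mutase) lost 11.4% to 3 copies. Values of these 3 genes are therefore uncertain, and sums over the copies are given where they matter. The direction of strand counting is not given in the sources used here, so genes that overlap another on the opposite strand are also uncertain. That touches Ankrd37, whose neighbour Ufsp2 held 35136 counts (267% of those of Ankrd37), and Pfkp, whose neighbour Pitrm1 held 57.6% of its counts.

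**Figure D1:**
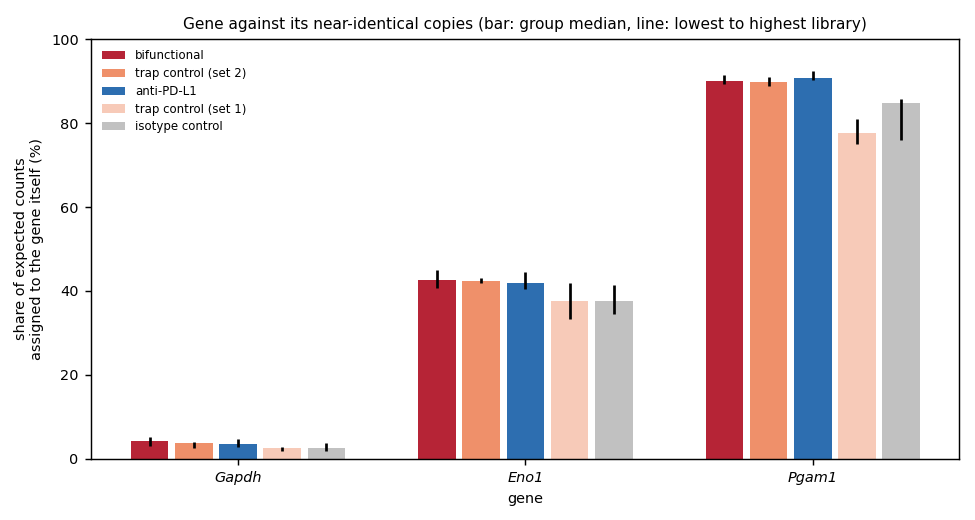
Share of the expected counts (percent, vertical axis) assigned to Gapdh, Eno1 and Pgam1 themselves out of the gene and its near-identical copies, by group. Bars are group medians and lines run from the lowest to the highest library. Gapdh kept 5.13% at most, and Eno1 between 33.2 and 45.1%.

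The first comparison asked what the TGF-β trap added to PD-L1 blockade, with bifunctional against anti-PD-L1 tumors, both in set 2. Of the 38 members, 1 was lower in bifunctional tumors and none was higher, by edgeR's quasi-likelihood test at an adjusted p under 0.05. Over all 15704 genes tested the same rule called 25.6% (12.4% higher and 13.1% lower), so the share of the members called (2.63%) lay below the background. On log2(TPM + 1), limma called 3043 genes higher and 43 lower. The median log2 fold change was -0.03 over the members, with 21 of 38 below 0, and 0.01 over all genes. The standard errors of the members were wider, with a median of 0.155 against 0.118 over all genes. Among the classic hypoxia targets Car9, Vegfa, Ldha and Ndrg1, none passed the test.

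The gene that was lower was Slc16a3 (ENSMUSG00000025161, chromosome 11, 120948480 to 120960868 on the plus strand of GRCm38), which encodes the lactate exporter MCT4. Its level in bifunctional tumors was 136.2 CPM at the lowest (C0484), 200.6 at the median and 257.4 at the highest (C0482), and in anti-PD-L1 tumors 221.7, 249.4 and 321.3 CPM. The groups overlapped, and in 1 of 10 bifunctional tumors the level exceeded the anti-PD-L1 median. The mean was 206 ± 36.8 CPM in bifunctional and 259 ± 28.1 CPM in anti-PD-L1 tumors (SD, n = 10 each), a log2 fold change of -0.33 (SE 0.0943, adjusted p = 0.017, edgeR). Without C0479 and C0484, the libraries with high muscle and skin or fat markers, it was -0.24 with an adjusted p of 0.0835, and with the muscle, keratinocyte and adipocyte marker scores as covariates it was -0.24 with an adjusted p of 0.0412. On the log2(TPM + 1) scale, which put the median gene at 0.15, it was -0.08 (adjusted p = 0.558). Its neighbours among the transporters were Slc2a1 (GLUT1, the main glucose importer) at -0.04 (SE 0.231, adjusted p = 0.908) and Slc2a3 (GLUT3) at -0.03 (SE 0.134, adjusted p = 0.867).

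Pfkfb3 and Pfkfb4, whose enzymes make the small molecule that drives phosphofructokinase, were the members with the highest fold changes, and neither passed the test. Pfkfb3 had 21.25 CPM at the lowest, 34.72 at the median and 58.83 at the highest in bifunctional tumors, against 14.18, 27.09 and 40.34 CPM in anti-PD-L1 tumors. The groups overlapped, with 8 of 10 bifunctional tumors above the anti-PD-L1 median. The mean was 36.0 ± 11.1 CPM in bifunctional and 25.9 ± 8.53 CPM in anti-PD-L1 tumors (SD, n = 10 each), a log2 fold change of 0.47 (SE 0.187, adjusted p = 0.0624, edgeR). DESeq2's Wald test gave an adjusted p of 0.0381 for Pfkfb3, limma on log2(TPM + 1) gave 0.0466, and a fit over all 40 libraries gave 0.029. Without C0479 and C0484 the log2 fold change of Pfkfb3 was 0.31 (adjusted p = 0.287, edgeR). With the muscle, keratinocyte and adipocyte marker scores as covariates it was 0.33 (adjusted p = 0.28, edgeR). Pfkfb4 stood at 0.25 (SE 0.128, adjusted p = 0.138, edgeR). On log2(TPM + 1), which put the median gene at 0.15, Pfkfb4 was called at 0.35 (adjusted p = 0.0404, limma). On counts Pfkfb4 gave 0.12 without C0479 and C0484 (adjusted p = 0.503, edgeR) and 0.07 with these marker scores as covariates (adjusted p = 0.741, edgeR).

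The enzymes of the glycolytic chain did not move as a block. None of the 5 hexokinase, isomerase and phosphofructokinase genes passed the test, with log2 fold changes between -0.14 and 0.15. Of the 9 genes of lower glycolysis, none passed, and their log2 fold changes lay between -0.26 for Pgam1 and 0.12 for Gapdh. The sum of Gapdh and its copies gave -0.02 (adjusted p = 0.92, edgeR). Aldoa gave 0.02 (adjusted p = 0.91, edgeR), and on log2(TPM + 1) it was called higher in bifunctional tumors at 0.32 (adjusted p = 0.0453, limma). The median of all genes on that scale was 0.15, with 3043 genes called higher and 43 lower. Pkm averaged 2523 ± 490 CPM in bifunctional and 2997 ± 246 CPM in anti-PD-L1 tumors (SD, n = 10 each), with 1 of 10 bifunctional tumors above the anti-PD-L1 median, and missed the threshold at -0.25 (SE 0.101, adjusted p = 0.0682). Pgam1 missed it too (adjusted p = 0.0732), as did the sum of Pgam1 and its copies at -0.24 (adjusted p = 0.0908). Pgk1 gave -0.22 (SE 0.132, adjusted p = 0.212) and Ldha -0.12 (SE 0.0905, adjusted p = 0.344). Pdk1, which restrains entry of pyruvate into mitochondria, gave -0.03 (adjusted p = 0.898).

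The hypoxia sensors and targets described next did not pass the test. Car9, the carbonic anhydrase used as a hypoxia marker in tumors, had 9.82, 31.84 and 47.23 CPM at the lowest, median and highest in bifunctional tumors, against 15.62, 25.35 and 38.65 CPM in anti-PD-L1 tumors. Both the lowest and the highest of these 20 tumors were bifunctional. The mean was 30.99 ± 10.7 CPM in bifunctional and 26.3 ± 8.01 CPM in anti-PD-L1 tumors, a log2 fold change of 0.24 with a 95% interval from -0.25 to 0.73 (adjusted p = 0.462). For Vegfa, the vessel growth factor, the log2 fold change was -0.04 with an interval from -0.47 to 0.40 (adjusted p = 0.913). Ndrg1, a stress-induced gene, gave 0.13 (SE 0.184, adjusted p = 0.63). Egln3, a prolyl hydroxylase that is itself a HIF target, gave -0.05 (SE 0.228, adjusted p = 0.889), and Hif1a gave -0.06 (SE 0.0857, adjusted p = 0.64).

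Cell type markers moved in the same comparison, and their part in the fold changes of the members was not tested. All 9 skeletal muscle markers called, of 10 tested, were higher in bifunctional tumors, with sums of 1.78 to 3874 CPM against 1.75 to 262.9 CPM in anti-PD-L1 tumors, where Tnnc2 had a median of 0. None of them was called without C0479 and C0484, where 760 of all genes were called, against 4014 with every library. Of 8 cytotoxic lymphocyte markers 7 were higher, and 6 without those libraries, with sums of 11.05 to 28.04 CPM in bifunctional and 3.38 to 9.67 CPM in anti-PD-L1 tumors. Of 9 proliferation markers 7 were lower, and 6 without those libraries, with sums of 928 to 1619 CPM in bifunctional and 1532 to 1815 CPM in anti-PD-L1 tumors. Macrophage markers were higher for 6 of 8 genes, and for 1 without them.

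**Figure D2:**
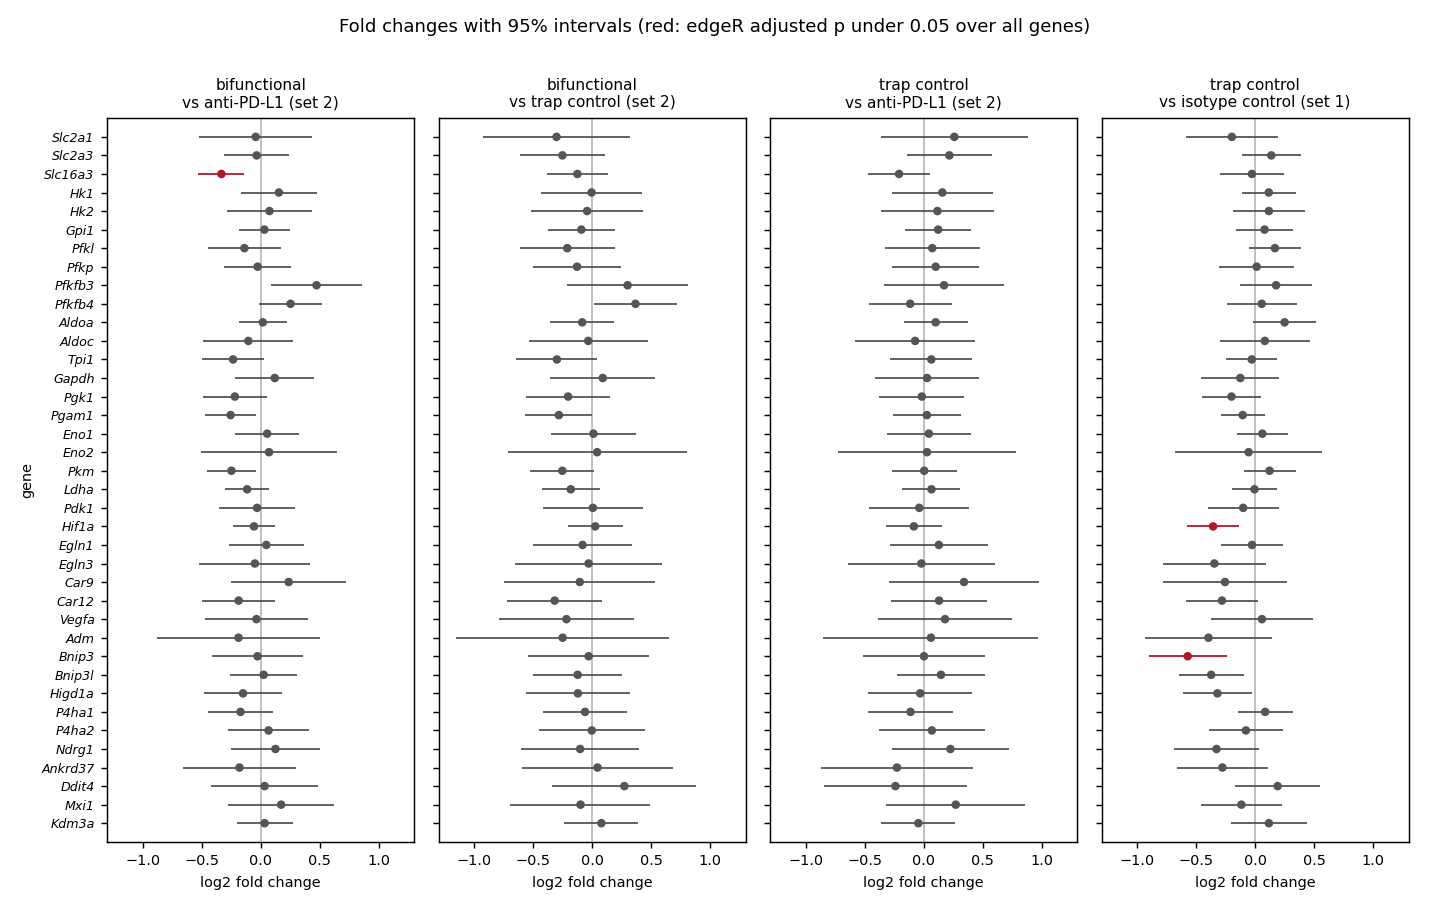
Log2 fold change (horizontal axis) of each of the 38 genes with its 95% interval in 4 comparisons within a library set, from edgeR. Red marks an adjusted p under 0.05 over all genes tested: Slc16a3 (-0.33) for bifunctional against anti-PD-L1, and Hif1a (-0.36) and Bnip3 (-0.57) for trap control against isotype control.

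Other genes of glucose metabolism, from lists that do not overlap the members, were called in both directions between bifunctional and anti-PD-L1 tumors. Of 18 other glycolysis genes tested, 5 were higher and 5 lower, against 25.6% of all genes called. The higher ones included Pgam2, the muscle mutase, at 5.41 CPM in bifunctional and 0.367 CPM in anti-PD-L1 tumors (log2 fold change 3.86, adjusted p = 0.0125). The lower ones included Adpgk, an ADP-dependent glucokinase (-0.29, adjusted p = 0.013), and Pgam5 (-0.32, adjusted p = 0.0132), a mitochondrial phosphatase related to the mutases. Without C0479 and C0484 none was higher and 1 was lower, which was Adpgk (-0.28, adjusted p = 0.0462), and Pgam2 gave 0.57 (adjusted p = 0.585). Of 39 other HIF targets tested 3 were higher (Ppp1r3c at 2.31, Stc2 at 1.54 and Klhl24 at 0.33) and none was lower, and without these libraries none was called. Calls over all genes also fell without them, from 4014 to 760.

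In the other lists most calls were not kept without C0479 and C0484. The same held over all genes, where 4014 (25.6%) were called with every library and 760 without these libraries. Of 20 genes at the entry to the TCA cycle 1 was higher and 4 were lower, and 1 and 0 without the libraries. The higher one was Pdk2, a pyruvate dehydrogenase kinase, at 3.66 CPM in bifunctional and 1.34 CPM in anti-PD-L1 tumors (1.45, SE 0.331, adjusted p = 0.00724), and 0.82 without the libraries (adjusted p = 0.0365). Of 13 MYC, mTORC1 and glucose-sensing regulators 3 were higher and 1 was lower, and 1 and 0 without the libraries. Txnip, a glucose-responsive brake on glucose uptake, had 152 CPM in bifunctional and 76 CPM in anti-PD-L1 tumors (1.00, SE 0.214, adjusted p = 0.00584), and 0.74 without the libraries (adjusted p = 0.0272). Of 13 genes of the HIF machinery 2 were higher and 3 lower, and 0 and 1 without the libraries. Eloc, an elongin of the VHL ubiquitin ligase that removes HIF-α, was lower (-0.27, adjusted p = 0.0037), also without the libraries (-0.26, adjusted p = 0.0167). Of 7 pentose phosphate genes 1 was lower, Taldo1 (-0.27, adjusted p = 0.0242), and none without the libraries.

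The second comparison asked what binding of PD-L1 added to the trap, with bifunctional against trap control tumors in set 2, and rested on 4 trap control libraries. No member was called, where the rule called 0.00637% of all genes (1 of 15704). At an unadjusted p under 0.05 the test gave 1 member, against 2427 of all genes, and DESeq2 called 214 genes of which none was a member. The median log2 fold change was -0.09 over the members, with 28 of 38 below 0, and 0.03 over all genes. The member with the smallest adjusted p was Pfkfb4 (0.37, SE 0.172, adjusted p = 0.314).

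Within the trap control libraries of set 2, 1 tumor stood above the others for most members by CPM. Slc2a1 had 438.2 CPM in C0465, 760.2 in C0466, 249.0 in C0467 and 311.1 in C0468, against 121.7, 321 and 669.7 CPM at the lowest, median and highest of the bifunctional tumors. By CPM, C0466 lay above every bifunctional tumor for Slc2a1, and the other 3 lay within the bifunctional range. By TPM the highest Slc2a1 value was 82.39 in these trap control tumors and 98.11 in bifunctional tumors. Car9 had 37.51 CPM in C0465, 56.16 in C0466, 17.70 in C0467 and 21.94 in C0468. Without C0466 the log2 fold change of bifunctional over trap control turned to 0.27 for Car9 (-0.11 with it), 0.10 for Slc2a1 (-0.30 with it), 0.07 for Vegfa (-0.22 with it) and 0.19 for Ndrg1 (-0.10 with it). With all libraries Pgk1 gave -0.20, Ldha -0.18, Egln3 -0.03 and Hif1a 0.03, with adjusted p between 0.435 and 0.964 for these 8 genes.

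The third comparison set trap control against anti-PD-L1 tumors in set 2. No member was called, at a background of 0.0127% (2 of 15704), and none had an unadjusted p under 0.05, which 772 genes had. DESeq2 called 3 genes, none of them a member. The median log2 fold change was 0.06 over the members, with 26 of 38 above 0, and -0.01 over all genes. The intervals allow sizeable differences at 4 libraries: for Car9 the log2 fold change was 0.34 with an interval from -0.29 to 0.98, and for Slc16a3 it was -0.21 with an interval from -0.47 to 0.05. These 2 comparisons and the first share libraries in pairs, so their values are not independent of each other. None of the genes of the other 6 metabolic lists was called against the trap control in set 2 or between trap control and anti-PD-L1 tumors.

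The fourth comparison asked what the trap did alone, with 6 trap control against 10 isotype control tumors in set 1. Of the 38 members 2 were lower in trap control tumors and none was higher, which is 5.26% of the members, against 7.34% of 14183 genes called (3.19% higher and 4.15% lower). The median log2 fold change was -0.03 over the members, with 22 of 38 below 0, and 0.02 over all genes. The genes that were lower were Hif1a, which encodes the oxygen-regulated subunit of the factor, and Bnip3, a HIF target whose protein marks mitochondria for removal. Hif1a lies on chromosome 12, from 73901375 to 73947530 on the plus strand, and Bnip3 on chromosome 7, from 138890836 to 138909519 on the minus strand (GRCm38).

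Hif1a had 137 CPM at the lowest (C0463), 188.1 at the median and 205.3 at the highest in trap control tumors, against 193.4, 227.3 and 292.4 CPM in isotype control tumors. No trap control tumor lay above the isotype median, and the groups overlapped. The mean was 181 ± 23.2 CPM in trap control (SD, n = 6) and 232 ± 33.4 CPM in isotype control tumors (SD, n = 10), a log2 fold change of -0.36 (SE 0.105, adjusted p = 0.047, edgeR). Bnip3 had 77.67 CPM at the lowest (C0463), 126.8 at the median and 143.7 at the highest in trap control tumors, against 124.7, 182.6 and 232.0 CPM in isotype control tumors. Again no trap control tumor lay above the isotype median while the ranges overlapped. The mean of Bnip3 was 119 ± 24.1 CPM in trap control (SD, n = 6) and 177 ± 39.5 CPM in isotype control tumors (SD, n = 10), a log2 fold change of -0.57 (SE 0.157, adjusted p = 0.0394, edgeR).

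Neither gene passed the test without C0463, the trap control library with 5779 CPM of muscle markers. The log2 fold change was then -0.29 for Hif1a (adjusted p = 0.0832) and -0.47 for Bnip3 (adjusted p = 0.0653). With muscle, keratinocyte and adipocyte marker scores as covariates it was -0.38 (adjusted p = 0.0963) for Hif1a and -0.67 (adjusted p = 0.0632) for Bnip3. DESeq2's Wald test, with all libraries, called both (adjusted p = 0.013 for Hif1a and 0.00784 for Bnip3) and also the close relative Bnip3l (adjusted p = 0.046).

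No other member passed the test. Bnip3l gave -0.37 (SE 0.131, adjusted p = 0.0846), with no trap control tumor above the isotype median, and Higd1a, a mitochondrial survival factor, -0.32 (SE 0.14, adjusted p = 0.157). Egln3 gave -0.35 (SE 0.207, adjusted p = 0.299), Ndrg1 -0.33 (SE 0.172, adjusted p = 0.234) and Car9 -0.26 (SE 0.249, adjusted p = 0.541). Slc2a1 gave -0.20 (adjusted p = 0.524), Pgk1 -0.20 (adjusted p = 0.293), Ldha 0.00 (adjusted p = 0.984) and Vegfa 0.06 (adjusted p = 0.891). Aldoa gave 0.25 (SE 0.129, adjusted p = 0.225), with 6 of 6 trap control tumors above the isotype median, and 0.14 without C0463 (adjusted p = 0.479) and 0.13 with these marker scores as covariates (adjusted p = 0.608).

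Of 38 other HIF targets tested in set 1, 2 were higher and 2 lower in trap control tumors, against 7.34% of all genes called in either direction. Stc1, a secreted glycoprotein, had 13.5 CPM in trap control and 6.94 CPM in isotype control tumors (0.95, SE 0.175, adjusted p = 0.013). Flt1, a VEGF receptor, had 58.9 CPM in trap control and 36.5 CPM in isotype control tumors (0.69, SE 0.146, adjusted p = 0.0187), beside the endothelial marker Cldn5 (0.81, adjusted p = 0.0422), the 1 of 7 endothelial markers called. Summed endothelial markers were 107.6 to 243.9 CPM in trap control and 73.96 to 178.1 CPM in isotype control tumors, and their part in the value of Flt1 was not tested. Insig2 (-0.42) and Plod2 (-0.37) were lower. Without C0463, Stc1 (1.01, adjusted p = 0.0236) and Flt1 (0.69, adjusted p = 0.0283) were still called, and Insig2 and Plod2 were not. Single genes were called in 4 of the other lists, Pgm2 (-0.32), Egln2 (0.27), Dld (-0.49) and Rpia (-0.42), of which Dld and Rpia were also called without C0463.

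**Figure D3:**
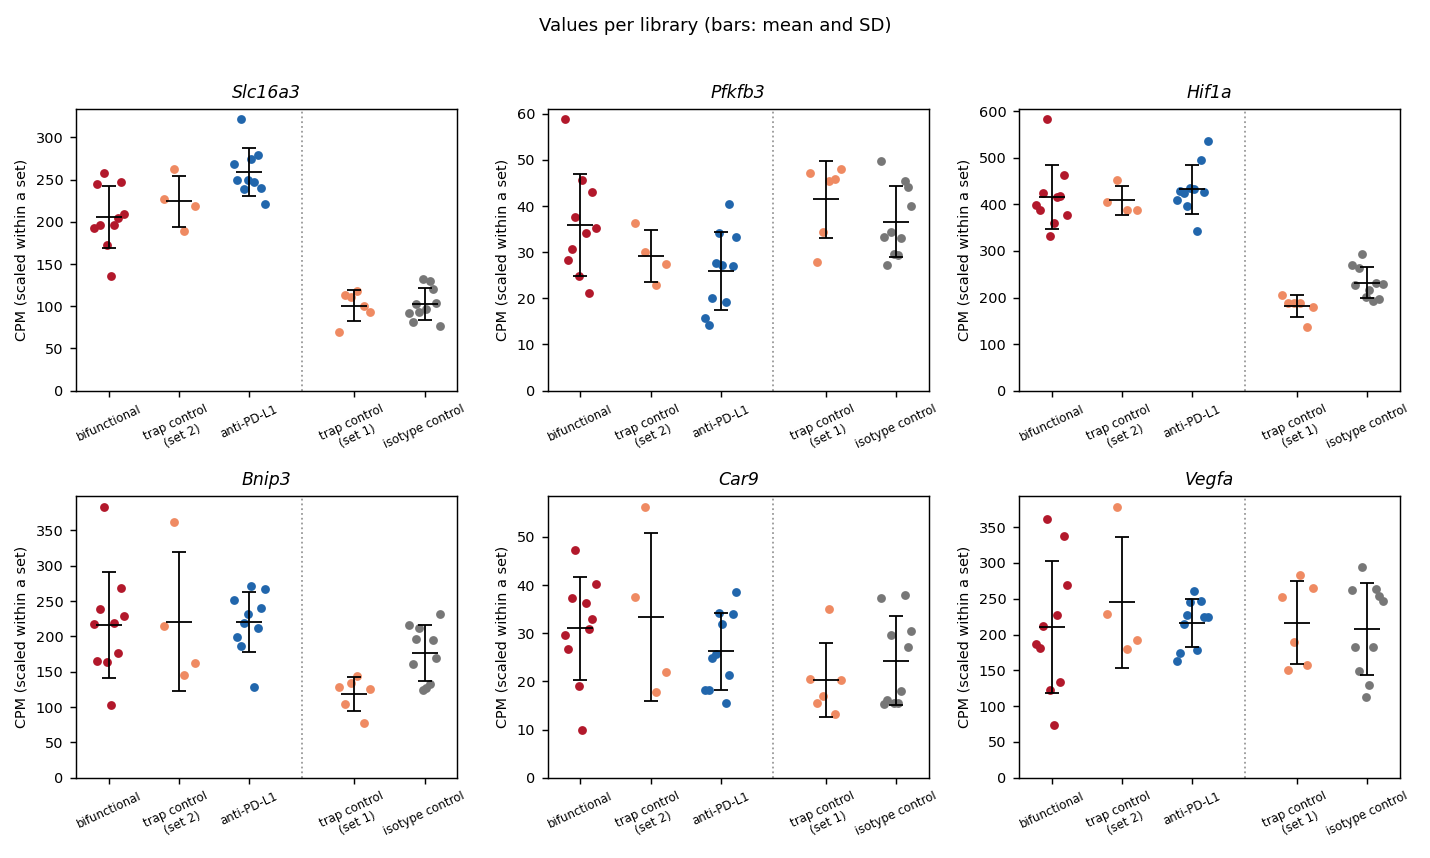
CPM of Slc16a3, Pfkfb3, Hif1a, Bnip3, Car9 and Vegfa (vertical axes, from 0), 1 point per library, with the mean and SD of each group. CPM were scaled within a set, so groups left and right of the dotted line are not comparable. Slc16a3 reached 257.4 CPM at most in bifunctional and 321.3 CPM in anti-PD-L1 tumors, and no trap control tumor of set 1 lay above the isotype median for Hif1a or Bnip3.

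The trap control was the 1 treatment in both sets, and 13 members differed between its sets, against at most 2 between treatments within a set. With all 40 libraries scaled together, 4 members were higher and 9 lower in trap control tumors of set 1 than of set 2 (34.2% of the members), against 49.9% of 16174 genes (25.6% higher and 24.3% lower). Higher in set 1 were Pfkfb3, at 58.2 ± 11.6 CPM in set 1 (SD, n = 6) and 23.3 ± 4.56 CPM in set 2 (SD, n = 4), a log2 fold change of 1.32 (adjusted p = 6.55e-05), and Eno2 (1.36), Ddit4 (1.17) and Kdm3a (1.06). Ddit4 and Kdm3a lay at -0.10 and -0.17 on the log2(TPM + 1) scale, where the median of all genes was -0.55, with 344 genes higher and 10670 lower. Pfkfb3 (0.28) and Eno2 (0.32) kept their sign there without passing the test. Lower in set 1 were Tpi1 (-0.88), Higd1a (-0.83), Car12 (-0.67), Pgam1 (-0.66), Pkm (-0.60), Gapdh (-0.58), Pgk1 (-0.58), Aldoa (-0.37) and Hif1a (-0.35). For Gapdh the sum with its copies gave -0.14 (adjusted p = 0.507, edgeR), and for Pgam1 it gave -0.45 (adjusted p = 0.00509, edgeR). Without C0466, 10 were called, 6 higher and 4 lower, and in every alternative setting at least 6994 of all genes were called.

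A direct test asked whether the trap effect differed with and without PD-L1 blockade, as bifunctional over anti-PD-L1 minus trap control over isotype control. No member passed, at a background of 7.91% of 16174 genes (3.96% higher and 3.95% lower), and 4 had an unadjusted p under 0.05, against 4355 of all genes. DESeq2 called 1815 genes and no member. The 4 were Pkm (-0.35, adjusted p = 0.107), Hif1a (0.33, adjusted p = 0.109), Bnip3 (0.57, adjusted p = 0.158) and Bnip3l (0.42, adjusted p = 0.169). The fold changes of Hif1a and Bnip3 under the trap alone were thus not shown to differ from those of the bifunctional protein over the antibody. On log2(TPM + 1) the calls over all genes numbered 51 higher and 8 lower.

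Contrasts through the trap control, which assume that the set difference is the same for every treatment on the log scale, gave no called member either. For bifunctional against isotype control the background was 2.39% (0.909% higher and 1.48% lower), 4 members had an unadjusted p under 0.05 (3376 of all genes), and DESeq2 called 865 genes but no member. For anti-PD-L1 against isotype control the background was 0.0124% (0.00618% in each direction), 1 member had an unadjusted p under 0.05 (1575 of all genes), and DESeq2 called 29 genes but no member. The value of Bnip3 was -0.59 in both (SE 0.3 each, adjusted p = 0.252 for bifunctional and 0.526 for anti-PD-L1). Both share the trap control and isotype control libraries.

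The members varied strongly from tumor to tumor inside a group, and they did so together. In bifunctional tumors the median SD of log2(CPM + 1) was 0.383 over the members, against 0.23 over all genes. In anti-PD-L1 tumors it was 0.275 over the members, against 0.198 over all genes. The added 1 narrows the SD of genes with low CPM, and all genes were not matched to the members in level. Of the 38 members 32 (84.2%) had the wider spread in bifunctional tumors, against 66.2% of all genes. Without C0479 and C0484 the number was 25 (65.8%), against 49.5% of all genes, and the median SD in bifunctional tumors was 0.28. The widest member in bifunctional tumors was Adm, which encodes the vessel-relaxing peptide adrenomedullin, from 23.69 CPM in C0484 to 252.8 CPM in C0482 (SD of log2(CPM + 1) 0.977). Eno2 (0.809), Egln3 (0.709), Vegfa (0.694) and Slc2a1 (0.686) came next.

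By CPM, single tumors stood at the top or bottom for many of the members. Among bifunctional tumors C0482 was highest for 29 of 38 members (76.3%), against 18.4% of all genes. C0484 was lowest for 30 members (78.9%), against 15.5% of all genes. C0482 held 2.14 CPM of muscle markers and C0484 held 3874 CPM, and the part of the host tissue in the low values of C0484 was not tested. C0479, with 2014 CPM of these markers, was highest for 3 members (7.89%) and lowest for 0, against 19.1 and 20% of all genes. Among trap control tumors of set 2, C0466, with 4.28 CPM of muscle markers, was highest for 33 members (86.8%), against 29.2% of all genes. C0467, with 2.82 CPM of muscle markers, was lowest for 25 members (65.8%), against 26.4% of all genes. Among trap control tumors of set 1, C0462 was highest for 24 members (63.2%), against 13.5% of all genes. C0463 was lowest for 21 members (55.3%), against 21.1% of all genes. In anti-PD-L1 tumors C0475 was lowest for 19 members (50%), against 10.9% of all genes. In isotype control tumors C0456 was highest for 16 members (42.1%), against 13.8% of all genes.

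**Figure D4:**
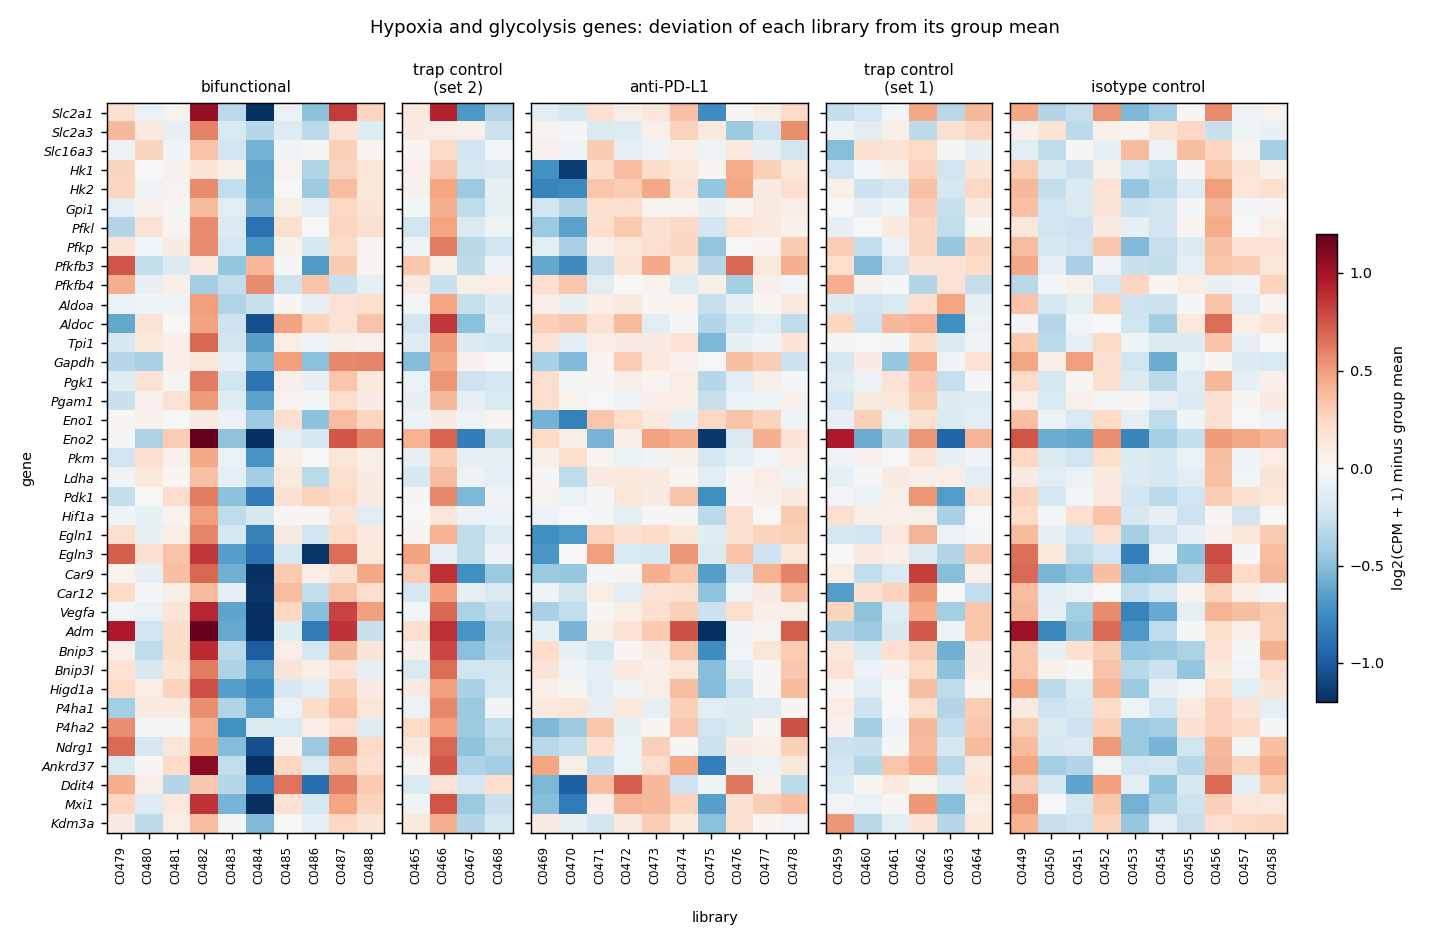
Deviation of log2(CPM + 1) from the group mean (colour, red above and blue below) for the 38 genes in each library, by group. Most genes are red in C0482, C0466 and C0462 and blue in C0484, C0467 and C0463, and Pfkfb4 runs the other way in C0482, C0484 and C0466. Colours are saturated at both ends of the scale.

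The tumor-to-tumor variation followed Car9 in bifunctional tumors. Of the other 37 members, 27 correlated with Car9 across the 10 tumors at an adjusted permutation p under 0.05, all of them positively, over 74 relations in 2 groups. The median Pearson r was 0.837, and 23 of 37 members had an r of at least 0.8, against 2.52% of all genes, whose median r was near 0. By Spearman's rho 9 were called. Without C0483 and C0484, the tumors farthest from the median of Car9, the median r was 0.573. Without C0479 and C0484, 3 were called by Pearson's r and 0 by Spearman's rho (exact permutation test), and the median r was 0.747 over 8 tumors. It was 0.322 when C0482 and C0483, then the farthest from the median of Car9, were left out too.

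The closest followers were Mxi1, a MYC antagonist (Pearson r 0.935, permutation adjusted p = 0.00259; Spearman rho 0.794, adjusted p = 0.0451), and Ankrd37, an ankyrin-repeat gene (0.934, adjusted p = 0.00259; rho 0.83, adjusted p = 0.041). Bnip3 kept an r of 0.834 without C0483 and C0484 (0.902 with all, permutation adjusted p = 0.00259; rho 0.903, adjusted p = 0.0217), and Vegfa kept 0.695 (0.893 with all, adjusted p = 0.00318; rho 0.879, adjusted p = 0.0217). Slc16a3 did not keep its relation, at 0.153 without them and 0.806 with all (permutation adjusted p = 0.0174; rho 0.636, adjusted p = 0.104). Of the 27 called, 16 kept an r of at least 0.6 without these tumors and 3 had one under 0.5. The PFKFB genes were not called, with an r of -0.10 for Pfkfb3 (permutation adjusted p = 0.798) and -0.55 for Pfkfb4 (adjusted p = 0.126). Without C0479 and C0484 the r was 0.60 for Pfkfb3 (exact permutation adjusted p = 0.171) and -0.07 for Pfkfb4 (adjusted p = 0.87).

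In anti-PD-L1 tumors 13 of 37 members correlated with Car9, again all positively, with a median r of 0.63, and 0.478 without C0475 and C0478. An r of at least 0.8 was held by 6 of 37 members, against 0.478% of all genes, whose median r was -0.04. By Spearman's rho 6 were called. The adjustment of p covered both groups together, so these counts also depend on the bifunctional tumors. With C0479 and C0484 left out of the bifunctional group, 7 were called in anti-PD-L1 tumors by Pearson's r and 0 by Spearman's rho. On log2(TPM + 1) the called members numbered 25 in bifunctional and 27 in anti-PD-L1 tumors. The closest were Car12, another carbonic anhydrase (r 0.894, permutation adjusted p = 0.00268; rho 0.879, adjusted p = 0.0217), and Pfkp, a phosphofructokinase (r 0.891, adjusted p = 0.00259; rho 0.903, adjusted p = 0.0217). Slc2a1 had an r of 0.806 (permutation adjusted p = 0.00407; rho 0.806, adjusted p = 0.0451) and 0.776 without C0475 and C0478. Pfkfb3 had an r of 0.658 and was not called (permutation adjusted p = 0.0674; rho 0.648, adjusted p = 0.098). Slc16a3 had an r of -0.27 (permutation adjusted p = 0.478; rho -0.309, adjusted p = 0.433). Of the members called, 12 were shared, which is 44.4% of those in bifunctional and 92.3% of those in anti-PD-L1 tumors, and whether the 2 groups differ in these relations was not tested.

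**Figure D5:**
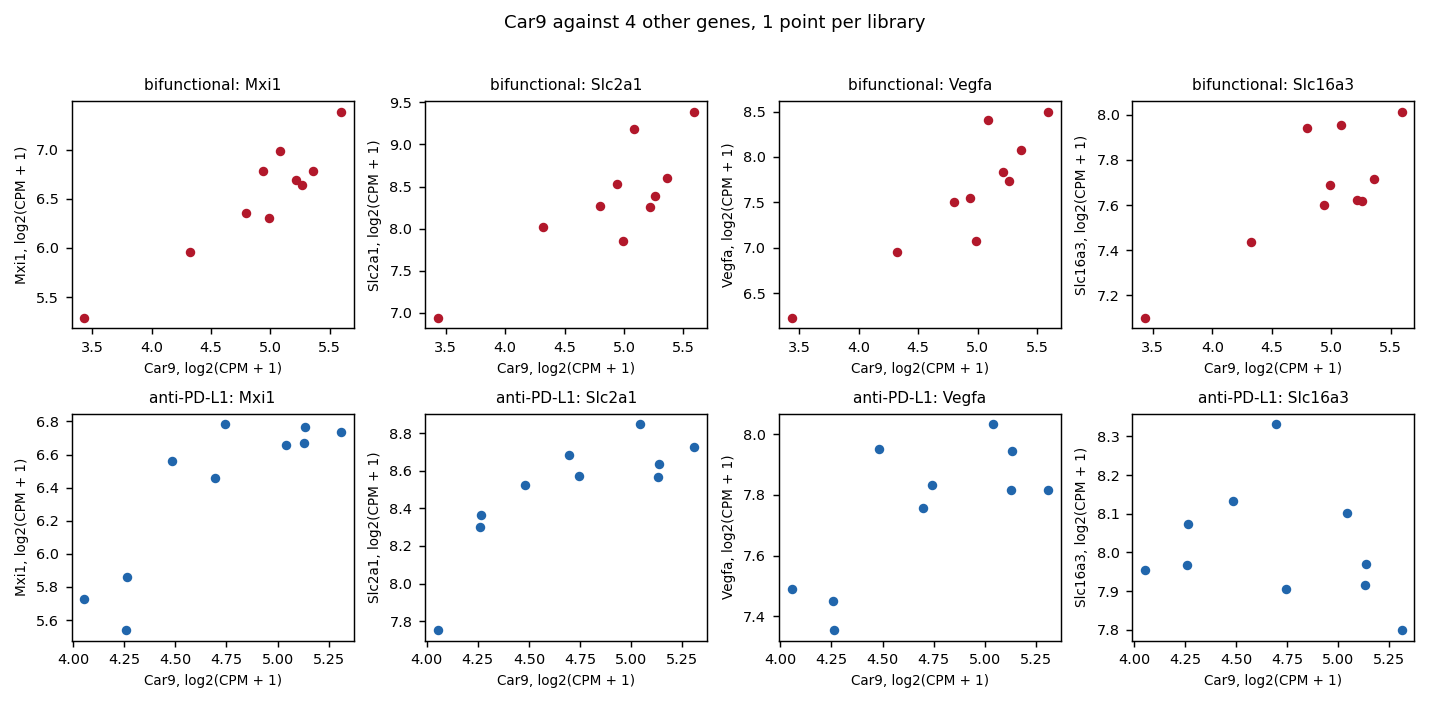
Log2(CPM + 1) of Mxi1, Slc2a1, Vegfa and Slc16a3 (vertical axes) against that of Car9 (horizontal axes), 1 point per tumor, for bifunctional (top) and anti-PD-L1 tumors (bottom). In bifunctional tumors the Pearson r was 0.935 for Mxi1, 0.837 for Slc2a1, 0.893 for Vegfa and 0.806 for Slc16a3, and in anti-PD-L1 tumors 0.857, 0.806, 0.747 and -0.274.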

How the data were processed

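Bulk RNA from 40 EMT-6 tumors, 1 library per mouse, was analysed from the tables the authors deposited. Per the submitters' processing notes, the tools include RSEM 1.2.31 and Bowtie2 2.3.1 with the build mm10. The annotation release and the strand of counting are not given in the sources used here. The authors deposited RSEM expected counts and TPM per Ensembl gene. Of the identifiers, 37607 of 39012 (96.4%) had a symbol. Expected counts (14.0% not whole) were rounded and tested with edgeR 4.0.16 (quasi-likelihood, TMM, filterByExpr, Benjamini-Hochberg over all genes, threshold 0.05) in R 4.3.3. CPM were scaled within a set. TPM, as deposited, were tested with limma 3.58.1 on log2(TPM + 1) and log2(TPM + 0.1), and counts with DESeq2 1.42.0. The edgeR script was first tested on simulated data. Near-identical copies shared 90% identity over 500 bases or more. P-values for Car9 come from 100000 two-sided permutations of log2(CPM + 1). Relations in isotype control tumors were not computed, since their Car9 values fell into separate clusters, nor in trap control tumors. The members and lists were chosen with earlier results of these data known. Named for bifunctional against anti-PD-L1, bifunctional against trap control and trap control against isotype control were the called members and Car9, Vegfa, Slc2a1, Ldha, Pgk1, Ndrg1, Egln3 and Hif1a. Of other lists up to 4 called genes were named. Members named in the other comparisons of treatments, and other members named as examples, were chosen after their values were seen. Promoter windows are from RefSeq (GRCm38.p6), and gene positions from GENCODE.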

Additional observations from a re-analysis of the deposited data

Results flagged for a closer look

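In 190 combinations of member and group, 15 held a library far from the others of its group by Dixon's test, where chance gives about 5% of combinations. The combinations are not independent, since the members of a group share its libraries and varied together, so the 15 cannot be weighed against that rate.

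Of the 15, 6 came from C0466 among the 4 trap control tumors of set 2. It was highest for Tpi1 (1257 CPM, the next at 794.3), Pgam1 (1324 CPM, the next at 948.0), Pkm (3660 CPM, the next at 2804), Car12 (123.6 CPM, the next at 81.06) and Bnip3l (234.4 CPM, the next at 129.3), and lowest for Pfkfb4 (8.205 CPM, the next at 10.63). These gaps are in CPM. By TPM the same 4 tumors ranged from 164.9 to 231.7 for Tpi1 (median 195.0) and from 163.9 to 207.8 for Pgam1 (198.4). They ranged from 378.2 to 428.6 TPM for Pkm (424.0) and from 7.16 to 9.74 for Car12 (8.31). For Bnip3l they ranged from 29.52 to 48.47 TPM (34.07), and for Pfkfb4 from 0.8 to 1.56 (1.375). In the same group C0468 was lowest for Slc2a3 (12.3 CPM, the next at 15.62).

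Among bifunctional tumors C0482 was highest for Tpi1 (1151 CPM, the next at 779.5), Hif1a (582.8 CPM, the next at 462.3) and Ankrd37 (29.25 CPM, the next at 17.1). Among anti-PD-L1 tumors C0475 was lowest for Tpi1 (587.9 CPM, the next at 779.3) and Pdk1 (73.05 CPM, the next at 115.8). Among trap control tumors of set 1, C0462 was highest for Car9 (34.96 CPM, the next at 20.56). Among isotype control tumors C0456 was highest for Pfkl (246.3 CPM, the next at 198.6) and Aldoc (23.64 CPM, the next at 16.27).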

How the results depend on the processing

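No paired analysis was possible because replicate numbers follow accession order and pair no tumors. Of 525 alternative values for the called members and the 8 genes listed with them above, 26 lost the call, 45 changed sign and the rest kept direction and call. Other members gained calls, all higher in bifunctional than in anti-PD-L1 tumors: Pfkfb3 with DESeq2, on both TPM scales and over 40 libraries, and Pfkfb4 and Aldoa on both TPM scales. Bnip3l was called lower in trap control than in isotype control tumors with DESeq2. The called members of bifunctional against anti-PD-L1 numbered 2 with DESeq2's Wald test, 3 on each TPM scale (Slc16a3 not among them), 2 in the fit over 40 libraries and 0 without C0479 and C0484 (1 as reported). For trap control against isotype control they numbered 0 with no filter, on both TPM scales, with host tissue covariates and without C0463, and 1 over 40 libraries (2 as reported). Between the trap control sets they numbered 33 on each TPM scale (13 as reported). Of all 16174 genes, 11014 were called there on log2(TPM + 1) and 11659 on log2(TPM + 0.1). Leaving out single trap control libraries of set 2 gave 10 to 14 members. Calls with Car9 numbered 3 without C0479 and C0484 in bifunctional tumors (27 as reported). In anti-PD-L1 tumors they numbered 27 on log2(TPM + 1), and 7 when C0479 and C0484 were left out of the joint adjustment (13 as reported). The median r there was 0.478 without C0475 and C0478. The causes were not tested.

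Over all genes, calls for bifunctional against anti-PD-L1 numbered 760 without C0479 and C0484 and up to 4441 over the other alternatives (4014 as reported). With the reported fit 1951 were higher and 2063 lower, with log2(TPM + 1) 3043 higher and 43 lower, and with log2(TPM + 0.1) 3112 higher and 46 lower. The median of all genes was then 0.15 and 0.27. The range was 0 to 214 for bifunctional against trap control (1 as reported), 0 to 3 for trap control against anti-PD-L1 (2), 2 to 1713 for trap control against isotype control (1041), 33 to 1815 for the test of the difference in trap effects (1279), and through the trap control 0 to 865 for bifunctional (386) and 0 to 29 for anti-PD-L1 (2). Between the trap control sets it was 6994 to 11659 (8074 as reported).

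Signs changed, with none of the values called. For bifunctional against anti-PD-L1, log2(TPM + 1) and log2(TPM + 0.1) gave 0.143 and 0.144 for Slc2a1, 0.0389 and 0.0389 for Pgk1, 0.168 and 0.169 for Ldha, 0.243 and 0.25 for Hif1a, 0.13 and 0.143 for Egln3, and 0.148 and 0.15 for Vegfa. Host tissue covariates gave 0.153 for Slc2a1, 0.0142 for Hif1a and 0.16 for Vegfa. Leaving out C0479 and C0484 gave 0.0836 for Slc2a1 and 0.111 for Vegfa. A mean of at least 1 CPM gave 0.00145 for Vegfa. For bifunctional against trap control, the TPM scales gave 0.00187 and 0.0018 for Pgk1, 0.0305 and 0.0305 for Ldha, 0.0719 and 0.0672 for Egln3, 0.114 and 0.127 for Car9, and 0.0933 and 0.0947 for Ndrg1, and leaving out C0479 and C0484 gave 0.0182 for Car9. For trap control against isotype control, host tissue covariates gave -0.0115 for Vegfa. Between the trap control sets the TPM scales gave -0.0984 and -0.135 for Ddit4 and -0.165 and -0.23 for Kdm3a. Leaving out single libraries of the bifunctional (C0479 or C0484) or trap control group gave ranges that cross 0. For bifunctional against anti-PD-L1 they were -0.0468 to 0.0763 for Slc2a1, -0.134 to 0.0508 for Egln3 and -0.0173 to 0.0798 for Vegfa. For bifunctional against trap control they were -0.503 to 0.101 for Slc2a1, -0.292 to 0.0125 for Pgk1, -0.00184 to 0.0841 for Hif1a, -0.129 to 0.16 for Egln3, -0.319 to 0.271 for Car9, -0.346 to 0.0749 for Vegfa and -0.252 to 0.186 for Ndrg1. Against trap control the highest values came without C0466, except for Egln3 without C0465. Car9 at 201 to 1273 expected counts and Pfkfb4 at 57 to 520 per library were among the shallowest members, and 4 trap control libraries limited the comparisons with them.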

Other observations

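Car9 in the 10 isotype control tumors fell into 2 separate ranges, 15.31 CPM in C0450, 15.52 in C0453, 15.57 in C0454, 16.18 in C0451 and 17.96 in C0455, and then 27.16 CPM in C0457, 29.58 in C0452, 30.43 in C0458, 37.25 in C0449 and 37.85 in C0456. The gap between them was 40.8% of the range of the group, against 8.77% in bifunctional and 26.7% in anti-PD-L1 tumors. No relation with Car9 was computed across them.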
